A study of Homo sapiens with 8 samples.

Results

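The genes described here are 10 members of the NF-kB system: the subunit genes NFKB1, NFKB2, RELA, RELB and REL, the inhibitor gene NFKBIA, and the feedback and adaptor genes TNFAIP3, BIRC2, BIRC3 and TRAF1. They were chosen by gene symbol, with earlier results of these data known, from the 52576 genes of the deposited table. Each of the 10 matched 1 row. All 10 passed a filter that asked for a mean of 1 RPKM or more (reads per length of gene model, scaled to library depth) over the libraries, as did 13979 genes in all. The RNA came from NCI-H2009, an established human lung adenocarcinoma line, and all 8 libraries are from cells that first received dCas9-KRAB. In that fusion a repressor domain is carried by a Cas9 that has lost its nuclease activity, and a guide RNA directs it to a site. In 2 control libraries no guide followed (no guide), and in 2 a guide that matches nothing in the human genome (non-targeting guide). The other libraries received a guide to e3, an enhancer studied for its effect on MYC, 2 with e3 guide 1 and 2 with e3 guide 2. Whether the replicate libraries are separate cultures is not given by the labels, so p-values measure only the spread among libraries, which may be technical.

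NF-kB is a family of dimeric transcription factors that are held inactive in the cytoplasm by inhibitor (IkB) proteins. Receptors for tumour necrosis factor, interleukin-1 and microbial products activate a kinase complex, IKK, that marks the inhibitors for destruction, and the freed dimers enter the nucleus. In a slower, noncanonical branch the kinase NIK drives processing of the NFKB2 product, which pairs with RelB. Several genes of the system are themselves targets of NF-kB, among them NFKBIA, TNFAIP3 and BIRC3, so that their RNA levels are widely read as a sign of the pathway's activity. In epithelial cells of the lung the pathway is known for its part in inflammation and survival.

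NF-kB dimers bind a short DNA element, the kB site, and promoter windows are shown for the members that hold a match to it. The windows run from 250 bases before to 50 bases after a RefSeq transcript start (GRCh38.p14) and were available for 9 of the 10 members. They were searched on both strands for the kB consensus, which is 10 bases long, and overlapping matches were counted. A match was found in 6 of those 9 members, and in 781 (9.13%) of 8550 tested genes with a window. It was found in 5.91% of all 35116 windows. The members were picked as NF-kB genes, so the share among them is a description. Capitals mark the matches, and each sequence is written 5′ to 3′ on the strand of the gene.
NFKBIA, chr14:35404700-35404999, minus strand: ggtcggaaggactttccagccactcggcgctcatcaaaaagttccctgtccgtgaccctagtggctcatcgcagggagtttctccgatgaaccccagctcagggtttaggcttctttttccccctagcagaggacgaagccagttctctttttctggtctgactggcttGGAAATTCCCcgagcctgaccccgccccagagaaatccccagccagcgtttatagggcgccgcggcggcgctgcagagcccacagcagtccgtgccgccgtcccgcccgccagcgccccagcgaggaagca
TNFAIP3, chr6:137867009-137867308, plus strand: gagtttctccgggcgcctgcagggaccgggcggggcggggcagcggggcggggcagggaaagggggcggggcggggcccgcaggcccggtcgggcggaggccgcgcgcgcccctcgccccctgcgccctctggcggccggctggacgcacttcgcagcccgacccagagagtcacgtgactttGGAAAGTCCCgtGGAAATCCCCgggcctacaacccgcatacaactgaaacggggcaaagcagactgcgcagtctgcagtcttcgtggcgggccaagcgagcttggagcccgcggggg
BIRC3, chr11:102317234-102317533, plus strand: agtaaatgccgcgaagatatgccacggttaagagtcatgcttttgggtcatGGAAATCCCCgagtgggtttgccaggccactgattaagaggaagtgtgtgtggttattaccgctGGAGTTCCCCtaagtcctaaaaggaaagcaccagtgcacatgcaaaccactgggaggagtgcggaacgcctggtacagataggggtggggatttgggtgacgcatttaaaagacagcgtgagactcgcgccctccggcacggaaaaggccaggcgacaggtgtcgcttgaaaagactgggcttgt
NFKB2, chr10:102394328-102394627, plus strand: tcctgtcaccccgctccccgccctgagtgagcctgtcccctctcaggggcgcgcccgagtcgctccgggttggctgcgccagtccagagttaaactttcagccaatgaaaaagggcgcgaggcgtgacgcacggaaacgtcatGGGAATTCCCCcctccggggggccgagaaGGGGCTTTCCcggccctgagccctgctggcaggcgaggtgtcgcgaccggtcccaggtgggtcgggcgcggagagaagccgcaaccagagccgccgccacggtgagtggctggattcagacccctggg
NFKB1, chr4:102501109-102501408, plus strand: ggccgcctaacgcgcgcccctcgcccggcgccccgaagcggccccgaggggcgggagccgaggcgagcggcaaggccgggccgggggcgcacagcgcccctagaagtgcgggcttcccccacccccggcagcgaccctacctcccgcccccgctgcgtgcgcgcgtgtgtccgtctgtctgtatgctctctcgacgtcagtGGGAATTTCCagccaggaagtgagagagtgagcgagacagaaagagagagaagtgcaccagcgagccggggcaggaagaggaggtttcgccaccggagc
REL, chr2:60881324-60881623, plus strand: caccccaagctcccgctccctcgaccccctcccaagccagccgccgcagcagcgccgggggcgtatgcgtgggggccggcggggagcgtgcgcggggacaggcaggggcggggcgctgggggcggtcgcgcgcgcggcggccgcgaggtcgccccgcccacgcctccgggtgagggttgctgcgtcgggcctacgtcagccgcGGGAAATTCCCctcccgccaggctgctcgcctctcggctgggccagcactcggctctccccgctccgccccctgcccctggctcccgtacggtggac

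The NFKBIA, NFKB1 and REL windows each hold the same 10 bases, GGGAATTTCC, read on the opposite strand for NFKBIA and REL and on the gene strand for NFKB1. GGGGATTTCC occurs in both TNFAIP3 and BIRC3. In TNFAIP3 the matches GGGACTTTCC and GGGGATTTCC lie close together on the opposite strand, with their first bases at positions -67 and -55 from the start. In BIRC3, which holds GGGGATTTCC and GGGGAACTCC on the opposite strand, the matches begin at -199 and -135. NFKB2 has 3 annotated starts: the window shown holds overlapping matches and 1 separate match, another holds 2 matches, and the remaining window holds none. The windows of RELA, BIRC2 and TRAF1 hold no match, which says only that these letters are not in those windows.

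**Figure D1:**
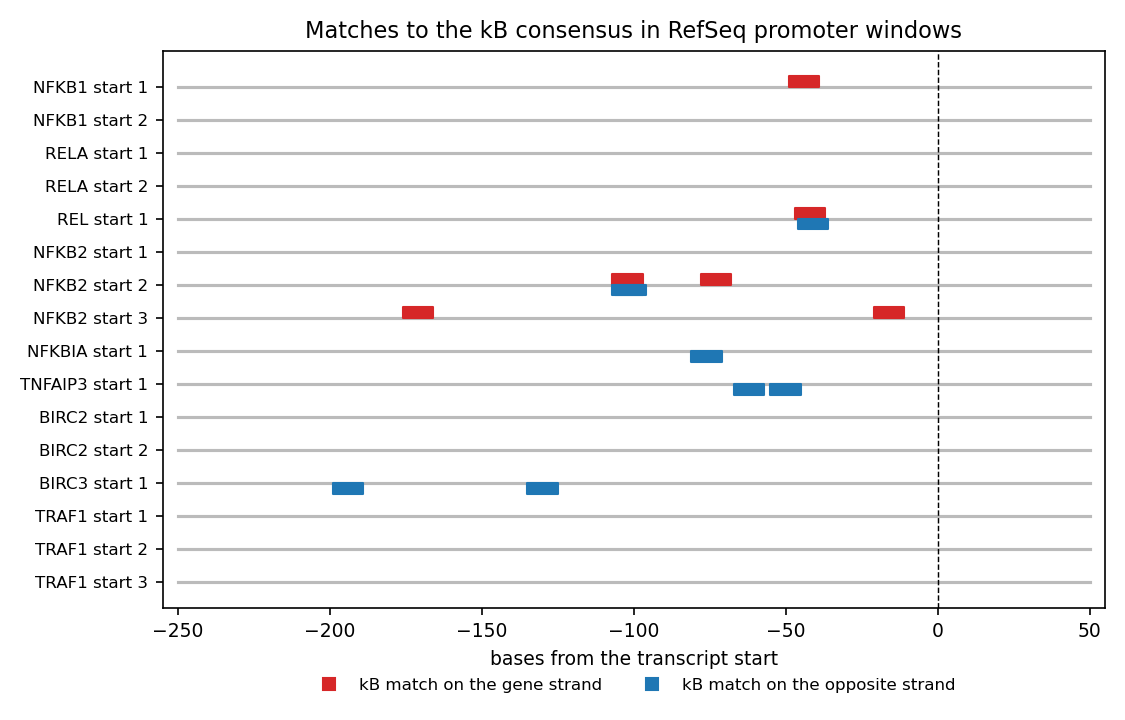
Position of matches to the kB consensus in the 16 promoter windows of 9 members, in bases from the transcript start, with matches on the gene strand in red and on the opposite strand in blue. Matches lie in 7 windows, those of NFKB1, REL, NFKB2, NFKBIA, TNFAIP3 and BIRC3.

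The steps between low RPKM values gave inferred depths of 3868829 to 5745112 reads per library. Along the first principal component of the tested genes (38.9% of the variance) the no-guide libraries lay at -36.9 and -38.4 and the other 6 between 5.74 and 18.5. MYC, the gene the enhancer is studied for, stood at 36.2 to 43.4 RPKM in the e3 libraries and at 72.7 to 90.1 RPKM in the control libraries. Epithelial markers (7 of 8 with a mean of at least 1 RPKM) summed to 3380 to 3497 RPKM in the no-guide libraries, 2684 to 2828 in the non-targeting libraries and 3063 to 3166 in the e3 libraries. Of 8 leukocyte markers only CD68, which encodes a lysosomal protein, reached a mean of 1 RPKM. CD3E and MS4A1 were listed at 0 in all libraries and PTPRC in 7 of 8. The leukocyte sum was 12.5 to 14.4 RPKM in the no-guide libraries, 22.2 to 24.2 RPKM in the non-targeting libraries and 28.6 to 32.2 RPKM in the e3 libraries, nearly all from CD68. Fibroblast markers summed to 3.33 to 4.55, 5.06 to 5.76 and 6.15 to 7.18 RPKM in the same order, nearly all from COL1A1. COL3A1, DCN and LUM were listed at 0. The 3 endothelial markers in the table summed to 0.0721 to 0.503 RPKM.

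The 10 genes split by group in one main way: cells without a guide had the lowest levels, and cells with any guide had higher ones. In 9 of the 10 genes each of the 6 libraries with a guide, non-targeting or e3, lay above both libraries without a guide, a pattern that 12.5% of the tested genes showed. REL was the exception. Summed over the 10 genes, the no-guide libraries held 139.7 and 140.2 RPKM, the non-targeting libraries 311 and 305, those of guide 1 311 each, and those of guide 2 339.9 and 321. RPKM is a level per gene length, so the genes can also be ranked against each other. NFKBIA was the most abundant member in every library, with a mean above 96.3% of the tested genes, and REL was the least abundant in all libraries with a guide.

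**Figure D2:**
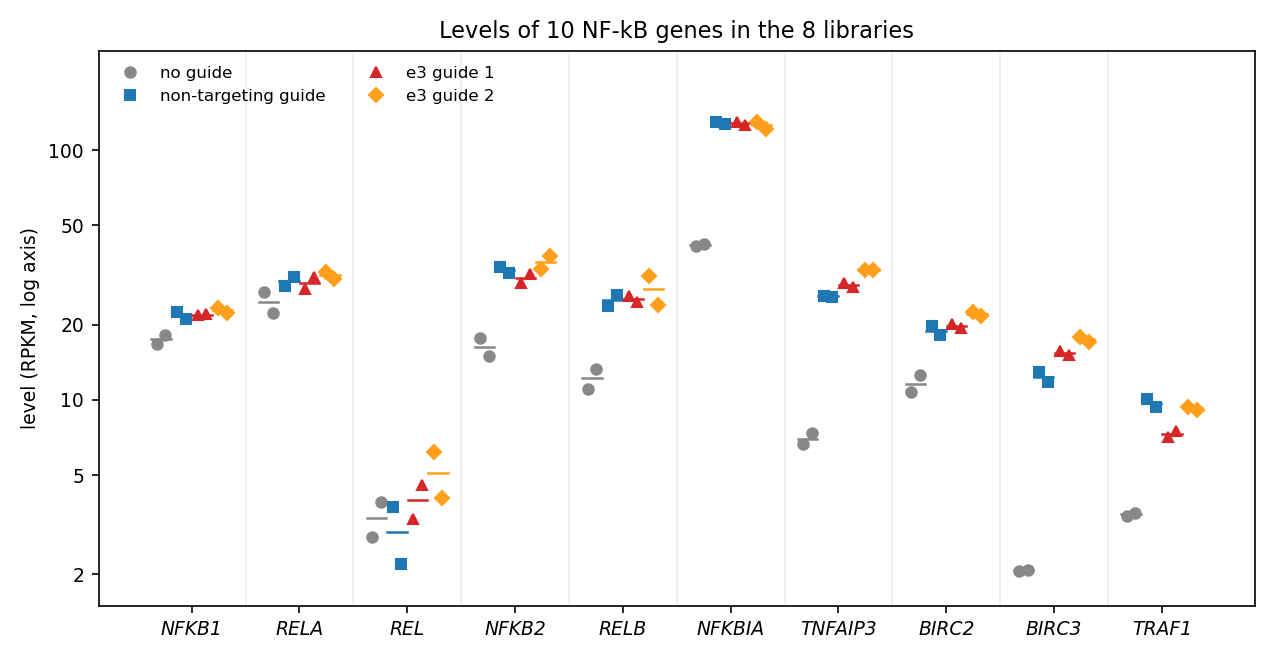
Level of each of the 10 genes in each of the 8 libraries, in RPKM on a log axis, with 1 point per library, colours for the 4 groups and a bar at each group mean. The no-guide points lie below all others for every gene but REL, and NFKBIA goes from 41.5 and 42.0 RPKM to between 121 and 130.2 RPKM.

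RELA (ENSG00000173039.12, chromosome 11) and NFKB1 (ENSG00000109320.6, chromosome 4) encode p65 and the precursor of p50, the subunits of the canonical dimer. RELA had 27.0 and 22.3 RPKM in the no-guide libraries, 28.5 and 31.2 in the non-targeting libraries, 27.8 and 31.2 in those of guide 1 and 32.4 and 30.6 in those of guide 2. The no-guide libraries were the lowest, 1 of them only just below the nearest library with a guide. NFKB1 had 16.8 and 18.2 RPKM in the no-guide libraries, 22.5 and 21.0 in the non-targeting libraries, 21.9 and 22.1 in those of guide 1 and 23.3 and 22.3 in those of guide 2. The libraries with a guide spanned a narrow range, all above those without. Between the controls (non-targeting guide minus no guide) the difference in log2(RPKM + 1) was 0.27 ± 0.11 (SE) for RELA and 0.30 ± 0.08 for NFKB1, and neither passed (limma, adjusted p = 0.156 and 0.0551).

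REL (ENSG00000162924.8, chromosome 2), which encodes c-Rel, a subunit best known from lymphocytes, was low and scattered. Its values were 2.84 and 3.91 RPKM in the no-guide libraries, 3.73 and 2.20 in the non-targeting libraries, 3.35 and 4.58 in those of guide 1 and 6.17 and 4.07 in those of guide 2, on 33 to 112 reads. All groups overlapped with at least 1 other group. The difference between the controls was -0.16 ± 0.27 (limma, adjusted p = 0.757). In GENCODE 29 an overlapping non-coding RNA on the same strand covers 43.3% of the exon bases of REL, and how the counting treated that overlap is not given in the sources used here.

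The genes of the noncanonical dimer, NFKB2 (ENSG00000077150.12, chromosome 10) and RELB (ENSG00000104856.8, chromosome 19), were both higher in the presence of a guide. NFKB2, the precursor of p52, had 17.7 and 15.0 RPKM in the no-guide libraries, 34.1 and 32.3 in the non-targeting libraries, 29.5 and 31.8 in those of guide 1 and 33.6 and 37.6 in those of guide 2. The no-guide libraries lay far below the rest, and among those with a guide the guide 1 libraries were the lowest while the other groups overlapped. How many tested genes show that order was not counted, and NFKB2 did not pass between the guides (limma, adjusted p = 0.540). RELB had 11.1 and 13.3 RPKM in the no-guide libraries, 23.8 and 26.3 in the non-targeting libraries, 26.1 and 24.8 in those of guide 1 and 31.4 and 24.0 in those of guide 2. Its guide 2 libraries were the highest and the second lowest of the 6 with a guide. Between the controls (non-targeting over no guide) NFKB2 was 2.03-fold higher (log2 change 0.98 ± 0.10, limma, adjusted p = 0.000796) and RELB 2.06-fold higher (0.99 ± 0.14, adjusted p = 0.00337), as ratios of mean RPKM.

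NFKBIA (ENSG00000100906.6, chromosome 14) encodes IkB-alpha, the inhibitor that retains the canonical dimer in the cytoplasm and is resynthesised after activation. Levels were 41.5 and 42.0 RPKM in the no-guide libraries, 129.5 and 127 in the non-targeting libraries, 129.9 and 126 in those of guide 1 and 130.2 and 121 in those of guide 2. The 6 libraries with a guide were nearly level, and 337 to 1424 reads lay behind each value. The ratio between the controls was 3.07 (log2 change 1.60 ± 0.05, limma, adjusted p = 2.35e-06).

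TNFAIP3 (ENSG00000118503.9, chromosome 6) encodes A20, a ubiquitin-editing enzyme that shuts off signalling upstream of IKK. Its level stood at 6.64 and 7.34 RPKM in the no-guide libraries, 26.1 and 25.9 in the non-targeting libraries, 29.3 and 28.4 in those of guide 1 and 33.01 and 32.97 in those of guide 2. The groups did not overlap, in the order no guide, non-targeting guide, guide 1, guide 2. The share of tested genes with that order was not counted, and TNFAIP3 did not pass between the guides (limma, adjusted p = 0.476). Taken singly, 12.5% of tested genes had all libraries with a guide above those without. The e3 libraries lay above the non-targeting ones in 16.0%, and guide 2 above guide 1 in 20.9%. The ratio between the controls was 3.72 (log2 change 1.76 ± 0.08, limma, adjusted p = 1.10e-05). An antisense gene covers 1.88% of its exon bases in GENCODE 29, and the strand setting of the counting is not given in the sources used here.

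BIRC2 (ENSG00000110330.3) and BIRC3 (ENSG00000023445.8) encode cIAP1 and cIAP2, paralogous ubiquitin ligases at the tumour necrosis factor receptors that also keep NIK low, and the genes are neighbours on chromosome 11. BIRC3 had 2.06 and 2.09 RPKM in the no-guide libraries, 12.9 and 11.8 in the non-targeting libraries, 15.7 and 15.2 in those of guide 1 and 17.9 and 17.1 in those of guide 2. It had the largest ratio of the 10 genes, 5.94 between the controls (log2 change 2.11 ± 0.10, limma, adjusted p = 1.50e-05), and its groups did not overlap. The share of tested genes with such groups was not counted, and BIRC3 did not pass between the guides (limma, adjusted p = 0.612). Shares for the single steps are those given for TNFAIP3. BIRC2 had the same order of group means with smaller steps, at 10.7 and 12.6 RPKM in the no-guide libraries, 19.7 and 18.2 in the non-targeting libraries, 20.1 and 19.3 in those of guide 1 and 22.5 and 21.7 in those of guide 2. Its non-targeting and guide 1 libraries overlapped, and the ratio between the controls was 1.63 (0.66 ± 0.10, limma, adjusted p = 0.00460). The paralogs shared 0.329% of the 36-base stretches of BIRC3 transcripts and 0.522% of those of BIRC2 in GENCODE 29.

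TRAF1 (ENSG00000056558.6, chromosome 9) encodes an adaptor that binds cIAP proteins at tumour necrosis factor receptors. The values were 3.44 and 3.53 RPKM in the no-guide libraries, 10.1 and 9.35 in the non-targeting libraries, 7.08 and 7.48 in those of guide 1 and 9.40 and 9.15 in those of guide 2. As for NFKB2, the guide 1 libraries lay below both the non-targeting and the guide 2 libraries. How many tested genes show that order was not counted. Guide 2 above guide 1 alone was seen in 20.9% of tested genes. TRAF1 did not pass between the guides (limma, adjusted p = 0.394). The ratio between the controls was 2.79 (log2 change 1.26 ± 0.11, limma, adjusted p = 0.000366).

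Of the 10 genes, 7 were called higher in the non-targeting than in the no-guide libraries, none lower, and 3 (NFKB1, RELA and REL) did not pass, where 12.4% of all tested genes were called, 6.55% higher and 5.81% lower. At an unadjusted p under 0.05 there were 9 members, beside 27.4% of tested genes. The median difference over the 10 genes was 0.99, and over all tested genes -0.01. The members were chosen with earlier results of these data known, so their share is a description. The 7 calls held under every alternative that kept both libraries of each control. Adjusted p for NFKB1 then ran from 0.0425 to 0.0834 (limma). The filters, the replicate block and leaving out an e3 library cannot move these log2 changes, so they test only spread and adjustment. BIRC3 and TRAF1 met the 5 RPKM filter only through libraries with a guide. With 1 control library left out, the 7 log2 changes ran from 0.55 (BIRC2) to 2.18 (BIRC3). Whether the difference between the controls comes from receiving a guide or from other differences between these libraries cannot be told apart, since each condition is 1 group of 2 libraries. The epithelial, leukocyte (CD68) and fibroblast (COL1A1) marker sums given above also differed between the controls without overlap, though not every epithelial marker did. Their part in the result was not tested.

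The design asks what the e3 guides change, and the control that also received a guide is the non-targeting one. Against it, none of the 10 genes passed in limma, where 6.84% of all tested genes were called (3.3% higher and 3.54% lower). At an unadjusted p under 0.05 there were 2, BIRC3 and TNFAIP3, beside 21.9% of all tested genes. BIRC3 went from a mean of 12.3 to 16.5 ± 1.26 RPKM (SD, n = 4), a ratio of 1.34 (log2 change 0.39 ± 0.10, limma, adjusted p = 0.0550). TNFAIP3 went from 26.0 to 30.9 ± 2.40 RPKM, a ratio of 1.19 (0.24 ± 0.08, limma, adjusted p = 0.145). In BIRC3 and TNFAIP3 all 4 e3 libraries lay above both non-targeting libraries, which 16.0% of tested genes showed. No member had all 4 below both, which 16.3% of tested genes showed. The 4 e3 libraries, 2 for each of 2 guides, were fitted as 1 group against the 2 libraries of the non-targeting guide. Here and in the lists below, an effect of targeting e3 cannot be told apart from other differences of these non-targeting libraries. BIRC3 passed when testing was limited to means of 5 RPKM or more (adjusted p = 0.0357, with a range of 0.0357 to 0.294 over its 12 alternatives).

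The 95% confidence intervals for BIRC3 (0.16 to 0.61) and TNFAIP3 (0.04 to 0.43) excluded 0, and those of the other 8 genes spanned it. For NFKBIA the difference (e3 minus non-targeting) was -0.01 with a 95% confidence interval from -0.13 to 0.10, the narrowest of the 10. For NFKB2 it was -0.01 (-0.23 to 0.22), for RELA 0.03 (-0.16 to 0.22), for NFKB1 0.04 (-0.12 to 0.21) and for RELB 0.07 (-0.19 to 0.33). BIRC2 had 0.14 (-0.07 to 0.34) and TRAF1 -0.22 (-0.53 to 0.09), while the interval of REL ran from -0.06 to 1.03. The median over the 10 genes was 0.06. Without the first or the second non-targeting library only 6 and 15 of all tested genes were called.

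**Figure D3:**
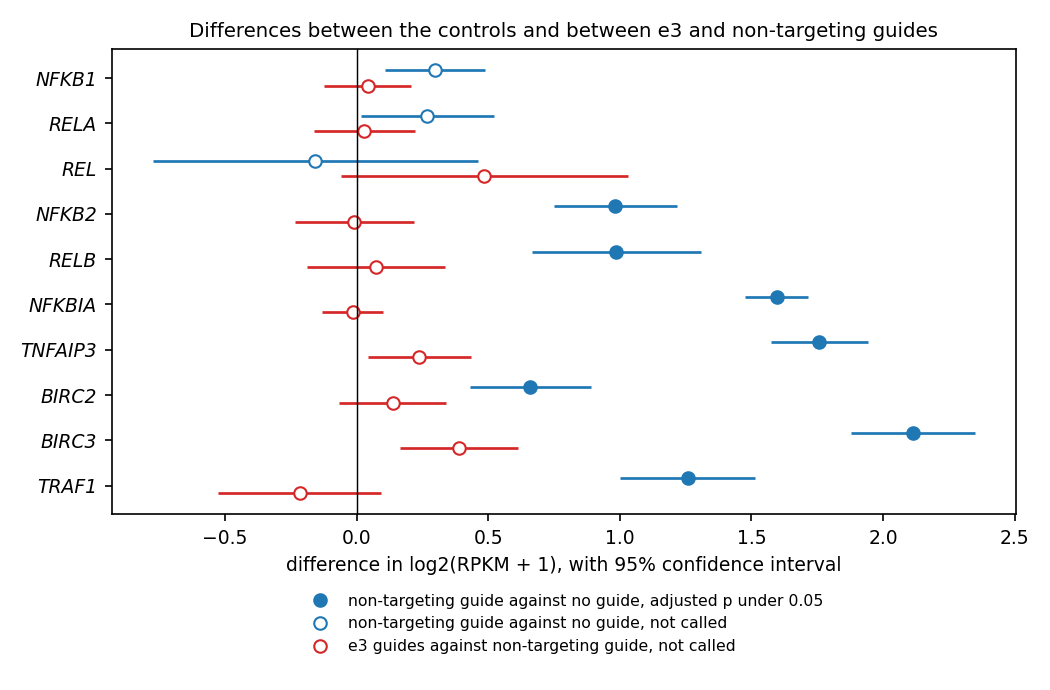
Difference in log2(RPKM + 1) for each of the 10 genes, non-targeting guide minus no guide (blue) and e3 guides minus non-targeting guide (red), with 95% confidence intervals from limma and filled points where the adjusted p was under 0.05. The blue points reach 2.11 (BIRC3), while the red points lie between -0.22 and 0.49 and none is filled.

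Against the cells without a guide the e3 libraries gave 8 higher genes of 10, the 7 above and NFKB1, where 16.7% of all tested genes were called, 8.68% higher and 8.03% lower. At an unadjusted p under 0.05 there were 9, beside 30.9% of tested genes. This comparison shares its no-guide libraries with that between the controls and is not separate evidence. The ratios of mean RPKM were 7.93 for BIRC3, 4.42 for TNFAIP3, 3.04 for NFKBIA, 2.38 for TRAF1, 2.18 for RELB, 2.03 for NFKB2, 1.80 for BIRC2 and 1.28 for NFKB1. NFKB1 (log2 change 0.34 ± 0.08, limma, adjusted p = 0.0203) was no longer called without either no-guide library or without the first guide 2 library, at adjusted p = 0.147, 0.0610 and 0.0547. RELA had 0.30 ± 0.10 (adjusted p = 0.0757) and REL 0.33 ± 0.21 (adjusted p = 0.345), and neither passed.

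When the 4 control libraries formed 1 group, no member passed in limma, where 5.2% of all tested genes were called (2.63% higher and 2.58% lower). RELB, TNFAIP3, BIRC2 and BIRC3 had an unadjusted p under 0.05, as did 22.2% of tested genes. All 10 differences (e3 minus controls) were above 0, from 0.16 for RELA to 1.45 ± 0.49 for BIRC3 (limma, adjusted p = 0.121). Their median was 0.48, which lies between the values against each control alone, 1.01 against no guide and 0.06 against the non-targeting guide. In TNFAIP3 and BIRC3 the e3 libraries lay above all 4 controls, as in 7.58% of tested genes. The pooled control group joins 2 group means that differ by up to 5.94-fold in these genes.

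The labels separate 2 e3 guides, which can be compared with each other. None of the 10 genes passed between guide 2 and guide 1 in limma, where 4 of 13979 genes (0.0286%) were called, 0.0215% higher and 0.00715% lower, and 2 members had an unadjusted p under 0.05, beside 10.4% of tested genes. They were TRAF1, 1.27-fold higher with guide 2 (log2 change 0.31 ± 0.11, 95% confidence interval 0.06 to 0.57, adjusted p = 0.394), and TNFAIP3, 1.14-fold higher (0.19 ± 0.08, 0.0019 to 0.37, adjusted p = 0.476). In 6 members both guide 2 libraries lay above both guide 1 libraries, as in 20.9% of tested genes. The median difference was 0.17 over the members and 0.000169 over all tested genes.

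Other genes of the pathway were read from 6 lists, from the cell surface inwards, with 6.55% of all tested genes called higher and 5.81% called lower between the controls and a median of -0.01. The lists were also chosen with earlier results of these data known, so their counts are a description. The CD68 level went along the same groups, from 12.2 and 13.7 RPKM without a guide to 21.6 and 23.7 RPKM in the non-targeting libraries, and the epithelial and fibroblast marker sums also differed, and their part in these counts was not tested. Among receptors, 4 of 16 tested rose between the controls, 12 did not pass and none fell, with a median difference of 0.31. TNFRSF9, a costimulatory receptor, rose from 0.746 and 0.934 to 12.1 and 8.01 RPKM (log2 change 2.56, adjusted p = 0.000131). It passed the filter only through libraries with a guide. TNFRSF12A, the receptor for TWEAK, rose by 0.43, from 149.9 and 150.1 to 206 and 199 RPKM. The main tumour necrosis factor receptor gene TNFRSF1A rose by 0.39 and TNFRSF21 by 0.31. With 1 library left out, between 2 and 5 of the 16 passed, and TNFRSF21 was called in 6 of 14 alternatives. TNFRSF1A and TNFRSF21 were also the receptors that were higher with the e3 guides than with the non-targeting guide, by 0.40 (adjusted p = 0.0178) and 0.54 (adjusted p = 0.0137), where 3.3% of all tested genes were called higher. TNFRSF1A went from 59.1 and 52.6 RPKM in the non-targeting libraries to between 70.8 and 77.9 RPKM in the e3 libraries. Without either non-targeting library neither passed, and each was called in 9 of 12 alternatives.

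Few ligand genes were expressed: 6 of 16 reached a mean of 1 RPKM. LTB, which encodes lymphotoxin beta, was listed at 0 in both no-guide libraries and had 4.48 and 2.64 RPKM in the non-targeting libraries and 2.43 to 5.45 RPKM in the e3 libraries. IL1A, an interleukin-1 gene, rose from 0.201 and 0.223 to 2.12 and 1.78 RPKM (log2 change 1.28, adjusted p = 0.0403). IL1A was called in 4 of 13 alternatives. LTB and IL1A rose between the controls, beside 6.55% of all tested genes, and 4 did not pass. Both were under 1 RPKM in the no-guide libraries and passed the filter only through libraries with a guide, so that their count is partly set by the filter. Without a filter 2 of 15 ligand genes passed. None of the 6 passed, beside 6.84% of all tested genes, between the e3 and non-targeting guides, where TNFSF12, which encodes TWEAK, was the 1 with an unadjusted p under 0.05 (0.61, adjusted p = 0.0595).

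Adaptor and IKK kinase genes carry the signal from the receptors. Of 28 tested, 4 rose between the controls, beside 6.55% of all tested genes, 24 did not pass and the median difference was 0.07. IRAK2, an interleukin-1 receptor kinase, rose by 0.89 and TRAF3, which restrains NIK, by 0.59, TICAM1, an adaptor of Toll-like receptors, by 0.43, and IKBKE, which encodes an IKK-related kinase, by 0.70. IKBKE, CHUK, IKBKB, IKBKG and MAP3K14 were named after their values were seen. The IKK subunits CHUK, IKBKB and IKBKG had differences of 0.08, -0.37 and 0.04, and MAP3K14, which encodes NIK, had -0.37. None of them passed (limma, adjusted p = 0.771, 0.0503, 0.915 and 0.0855), with IKBKB just above the threshold. With 1 library left out, 1 to 4 of the list passed between the controls, and 3 to 6 under the other alternatives. TICAM1 was called in 5 of 14 alternatives. None of the 28 passed between the e3 and non-targeting guides, where 5 had an unadjusted p under 0.05, beside 6.84% and 21.9% of all tested genes, and MYD88, another Toll-like receptor adaptor, had 0.37 (adjusted p = 0.0744).

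Other IkB proteins and brakes on signalling include genes that act beside NFKBIA and TNFAIP3. Of 21 tested, 9 rose between the controls, 1 fell and 11 did not pass, with a median of 0.36. Among all tested genes 6.55% were called higher and 5.81% lower. ZC3H12A, which encodes the mRNA-degrading regnase-1, went from 3.08 and 4.16 to 38.9 and 40.4 RPKM (log2 change 3.15, adjusted p = 3.74e-06). IER3 rose by 1.51 and NFKBIZ, which encodes a nuclear IkB protein, by 1.46. TNIP3, an A20-binding protein gene, was listed at 0 in the no-guide libraries and had 2.07 and 1.60 RPKM in the non-targeting libraries. It passed the filter only through libraries with a guide. The 1 that fell was the ubiquitin ligase gene ITCH (-0.53), named after its value was seen. Between the e3 and non-targeting guides 1 of the 21 passed, beside 6.84% of all tested genes called and 3.3% higher. It was NFKBIZ, which went from 11.1 and 11.2 to between 17.1 and 18.6 RPKM (log2 change 0.62, adjusted p = 0.00740). This call was made in 10 of 12 alternatives, the exceptions being those without a non-targeting library.

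Of 21 tested NF-kB target genes, 14 rose between the controls, 2 fell and 5 did not pass, with a median of 1.15. Over all tested genes 6.55% were called higher and 5.81% lower. Of the 14, CXCL1, CXCL3, CCL20, CSF2, BCL2A1 and MMP9 were under 1 RPKM in both no-guide libraries, and IL8 was at 1.06 and 0 RPKM. All but MMP9 were named after their values were seen. These genes passed the filter only through libraries with a guide, so the count and median are partly set by the filter. LCN2, which encodes the iron-scavenging protein lipocalin-2, went from 15.3 and 12.8 to 232 and 241 RPKM (log2 change 3.99), and MMP9, a matrix protease gene, from 0.250 and 0.371 to 26.3 and 22.7 RPKM (4.28). The 2 that fell were GADD45B, a stress-response gene (-0.88), and the survival gene BCL2L1 (-0.66), the latter named after its value was seen. Between the e3 and non-targeting guides 3 of the 21 passed, where 6.84% of all tested genes were called and 3.3% were higher, and all were higher: LCN2 by 0.53, GADD45B by 0.49 and IL8, a chemokine gene named after its value was seen, by 0.56. None of these 3 passed without either non-targeting library, and IL8 was called in 6 of 12 alternatives. Interferon-stimulated genes, which answer to another pathway, were read as a last list. Of 19, 10 rose between the controls, among them MX1 (1.58) and IFI6 (1.07), beside 6.55% of all tested genes. Of the 10, IFI27 and IFI44L, named after their values were seen, were under 1 RPKM in both no-guide libraries. They too passed the filter only through libraries with a guide. None of the 19 passed between the e3 and non-targeting guides, where 6 had an unadjusted p under 0.05. The shares of all tested genes there were 6.84% and 21.9%. The smallest p there belonged to STAT2, a signal transducer of interferon receptors (0.45, adjusted p = 0.0784), and OASL, an interferon-induced antiviral gene (-0.73, adjusted p = 0.0912).

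**Figure D4:**
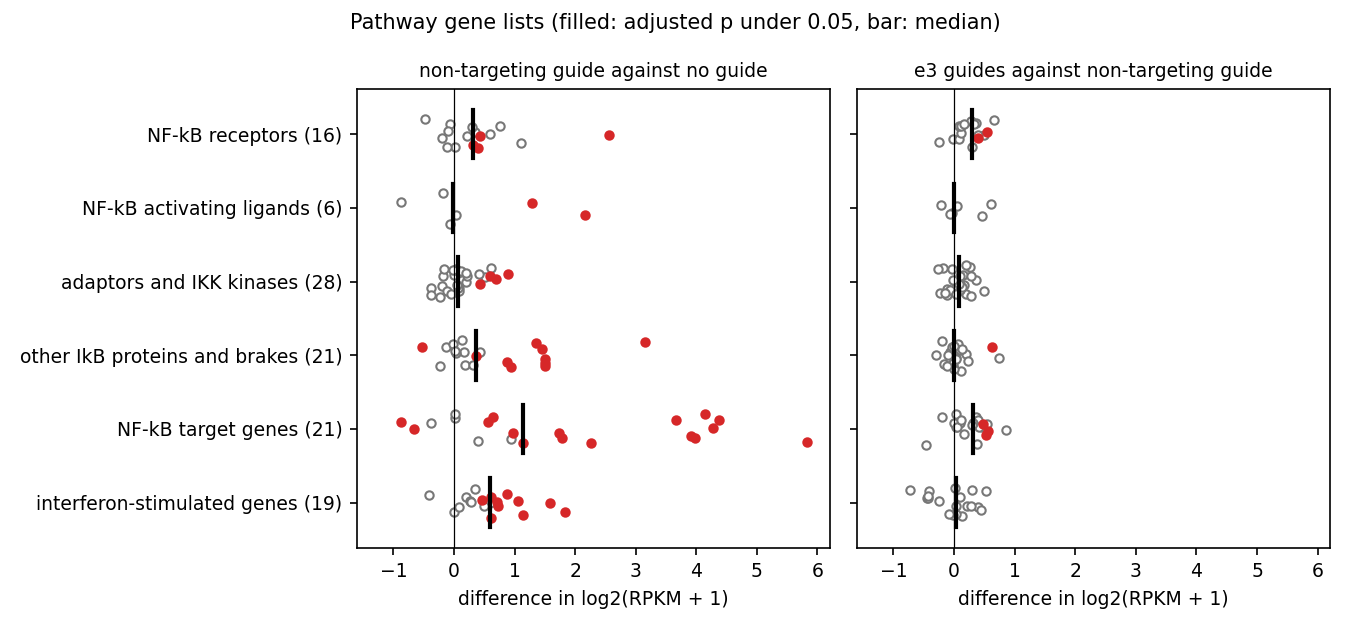
Difference in log2(RPKM + 1) for the tested genes of 6 lists (number tested in brackets), non-targeting guide against no guide on the left and e3 guides against non-targeting guide on the right, with 1 point per gene, filled where the adjusted p was under 0.05, and a bar at the list's median. The target genes have the highest median on the left (1.15), and on the right no list's median exceeds 0.32.

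Apart from REL and, less so, RELA, the profiles of the members over the 8 libraries were close to each other. This is a description in which the no-guide libraries stand apart from the rest. How many tested genes are as close to a member was not counted. Pearson's r of log2(RPKM + 1) with NFKBIA was 0.95 to 0.99 for NFKB1, NFKB2, RELB, TNFAIP3, BIRC2, BIRC3 and TRAF1, 0.79 for RELA and 0.23 for REL. For the 3 members with the widest range of group means, the tested genes most like them were sought. TGM2, a transglutaminase gene, was nearest to BIRC3 and to TNFAIP3 (r = 0.998 each, n = 8 libraries), with group means of 49.95 RPKM (no guide), 163 (non-targeting), 182 (guide 1) and 200.2 (guide 2). BIRC3 and TNFAIP3 were the second nearest of each other (r = 0.998), followed by CXCL2 for BIRC3 (r = 0.997) and TMEM132A for TNFAIP3 (r = 0.997). NFKBIA was most like SAA1 (r = 0.998), which was listed at 0 without a guide, then MT2A (r = 0.996) and DSE (r = 0.996).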

How the data were processed

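Poly(A) RNA of 8 libraries was sequenced, per the labels' protocols. The values deposited by the authors are RPKM per gene, as the table is named. The submitters' processing notes list Cufflinks and hg19 but give neither a role. The aligner, counting, strand setting and annotation release are not given in the sources used here. Groups and replicate numbers come from the sample titles, and the column name of the non-targeting guide from the design text. Members and lists were chosen with earlier results of these data known.

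Values were tested as log2(RPKM + 1) in limma (version 3.58.1, R version 4.3.3; moderated, with a variance trend, two-sided) on the 13979 genes whose mean reached 1 RPKM. Adjustment was Benjamini-Hochberg over all of them, with calls made below an adjusted p of 0.05. Changes on this scale understate those of low genes. The e3 guides were compared with controls in models with 2 groups, on the libraries concerned. The controls, and the guides, were compared with each other in a model with 4 groups. Reads were inferred from the steps between low values, and in 100% of tested genes the 8 values were whole multiples of 1 read to within 0.03 reads.

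The fits were tested on simulated data of 13979 genes. Only the genes counted below were changed, and otherwise all groups shared the same mean for a gene. Between the controls, 50 of 100 genes with a log2 change of 1 were recovered and 21 of 100 with a change of 0.5, with 3 false calls. For e3 guides and the non-targeting guide 62 and 14 of 100 were recovered, with 2 false calls. In the data 12.4% of tested genes were called between the controls, a larger share than was changed here, so recovery there may differ.

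The text names all members. From each pathway list it names the 2 genes with the smallest p between the controls and the 2 between the e3 and non-targeting guides. For the 3 members with the widest range it names the 3 genes most like each. Alternatives were a pseudocount of 0.1, no filter, a stricter filter at a mean of 5 RPKM, quantile and median-ratio scaling, a replicate block, leaving out each library and, for the pooled controls, an estimated correlation within groups and group means as samples. Promoter sequences are from RefSeq (GRCh38.p14) and gene overlaps from GENCODE 29. No coordinates of the deposited build are given.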

Additional observations from a re-analysis of the deposited data

How the results depend on the processing

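The count of members called stayed within 1.5 times in all 5 comparisons under every alternative but 1: with a minimum mean of 5 RPKM, 1 member (BIRC3) instead of 0 passed between the e3 and non-targeting guides. Leaving out 1 library gave 7 members between the controls, 7 to 8 against no guide, and 0 in the other 3 comparisons. The replicate block gave 7, 8, 0, 0 and 0 members in these comparisons. Replicate numbers showed no shared effect across groups, as the correlation of their deviations between groups ran from -0.0223 to 0.0138. Whether libraries of the same number were handled together cannot be read from this. Single member changes that crossed 0 were all uncalled. Against the non-targeting guide, quantile normalization gave 0.023 for NFKB2 and 0.020 for NFKBIA. With 1 library left out, REL between the controls ran from -0.44 to 0.13. Likewise, against the non-targeting guide, NFKB1 ran from -0.0046 to 0.088, NFKB2 from -0.069 to 0.044, RELA from -0.033 to 0.093, RELB from -0.0062 to 0.14 and NFKBIA from -0.028 to 0.0071. REL has no value at a minimum of 5 RPKM. The cause was not tested.

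Counts over all genes moved more. For the e3 guides against the pooled controls 727 genes became 406 without a filter, 387 with the replicate block, 256 with an estimated correlation, 1 with group means, and 180 to 580 with 1 library left out. Between the controls 1728 became 872 to 1040 without a control library, and against no guide 2336 became 945 and 983 without a no-guide library. Against the non-targeting guide 956 became 379 without a filter, 597 with the replicate block, 6 and 15 without a non-targeting library, and 444 and 532 without a guide 2 library. Between the guides 4 became 9, 24 and 13 without a filter, with a minimum of 5 RPKM and with quantile normalization, 1 with the block and 0 to 4 with 1 library left out. Counts for the pathway lists were recomputed as an alternative chosen after seeing the data. Target genes called between the controls ran from 14 to 16, while no gene of the 6 lists passed between the e3 and non-targeting guides without either non-targeting library. Depth limits REL most, at 33 reads in its lowest library.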

Other observations

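The interferon-stimulated list was the pathway list whose median differed most between the e3 guides, at -0.33 (guide 2 minus guide 1) over 19 tested genes. None passed in limma and 11 had an unadjusted p under 0.05, beside 10.4% of all tested genes. MX1 stood at 12.6 and 15.2 RPKM with guide 1 and at 6.56 and 5.87 RPKM with guide 2, and IFI6 at 39.3 and 42.1 against 20.7 and 25.4 RPKM. The NF-kB target list had a median of 0.13 in the same comparison, with MMP9 (1.12, adjusted p = 0.0244, named after its value was seen in this comparison) the only one of 21 called.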
